A study of Mus musculus with 2 samples.

Results

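The Rab genes encode the largest family of small GTPases of membrane traffic. They were taken as every gene whose single symbol is Rab followed by a number and at most a letter or a letter and a digit, which leaves out proteins that only bind Rabs. This gave 59 genes of the 18193 named genes on the arrays, covered by 132 probe sets. Each gene was represented by the probe set with the highest mean signal of both arrays, and the other probe sets were kept for comparison. The study compared macrophages without c-Maf with normal ones. There was 1 array from c-Maf knockout embryos (c-Maf-/-, called KO) and 1 from wild-type embryos (c-Maf+/+), both of the C57BL/6J strain at E15.5, a stage counted in days of embryonic development. The cells had been sorted from fetal liver as positive for Mac-1 and F4/80, and the stated purpose was a search for genes lower in KO macrophages. c-Maf, the product of Maf, is a transcription factor of the basic leucine zipper class that macrophages express. How many embryos were pooled and how the Maf allele was disrupted are not given in the sources used here.

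A Rab protein is active when it holds GTP and sits on a membrane, where it recruits effectors such as tethers, motors and fusion complexes. Exchange factors load the GTP, GTPase-activating proteins end the signal, and a dissociation inhibitor carries the prenylated Rab through the cytosol back to its next membrane. Each organelle carries its own Rabs, so that in macrophages a phagosome passes through stages marked by Rab5 and then Rab7 before it fuses with lysosomes.

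With 1 array per genotype no test, standard error or p-value was possible, and each difference describes these 2 arrays. The KO array was dimmer as a whole: its probe sets had a median signal of 2.98, against 4.73 on the wild-type array, in arbitrary linear units. Both arrays were therefore quantile-normalized, and "lower", "higher" and "level-adjusted" refer to the resulting log2 ratio of KO over wild type, while signals are printed as deposited. Values under a floor, the median of all values, were raised to it before the ratio was taken. A gene that exceeded the floor on both arrays was counted as measured. For a gene that exceeded it on 1 array only, the ratio is a lower limit, given with the words at least. A gene was called at 2-fold or more. Bright probe sets of the same gene differed by a spread of 0.69 log2 units (pooled SD over 3861 probe sets of 1592 genes). Bright means above the floor on both arrays, with the brighter level-adjusted signal at least 4 times the floor. This spread is no replicate error because all were read on the same 2 arrays, and it was not taken for dimmer probe sets. The median deposited log2 ratio was -0.93 over the 9238 genes whose deposited signals both exceeded the floor and 0.24 over 18 hybridisation control probe sets. Over 24 poly-A control probe sets it was 0.48. The ratio of 3' to 5' signal of Actb was 6.05 on the KO array and 13.3 on the wild-type array, so that ratios may differ with the position of a probe set; its part in any result was not tested.

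Maf, the targeted gene, had a signal of 0.219 on the KO array and 47.6 on the wild-type array in its brightest probe set, which is at least 8.51-fold lower after level adjustment. A second Maf probe set had 0.143 on the KO array and 21.0 on the wild-type array. The other 4 Maf probe sets had wild-type signals near or below the floor. The sources used here do not place these probe sets relative to the disruption.

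As a family the Rab genes were placed much like the other genes. Of the 59, 43 were measured on both arrays, 4 were above the floor on the wild-type array only, 6 on the KO array only and 6 on neither. The lower members were Rab44, Rab22a, Rab15, Rab25, Rab3d and Rab5a, and the higher ones Rab32, Rab43 and Rab1a. The higher ones had deposited log2 ratios of 0.36, 0.24 and 0.06, and with the hybridisation controls as reference Rab43 and Rab1a turned to the other side of 0. The 6 lower members were 11.3% of the 53 Rab genes above the floor on at least 1 array, beside 9.05% of 13290 such genes in all. The 3 higher members were 5.66%, beside 8.34% of all such genes. Counted on both arrays only, 5 of 43 Rab genes were lower and 3 higher, or 11.6% and 6.98%, beside 8.57% and 7.62% of 9452 genes. These shares are near the background, so that neither count is a result about the family.

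The median level-adjusted log2 ratio was 0.07 over the 43 Rab genes measured on both arrays and 0.004 over all 9452 genes. With bounds included the medians were 0.07 over 53 Rab genes and 0.009 over all genes. The middle of the Rab distribution ran from -0.36 to 0.65 (25th to 75th percentile), and that of all genes from -0.48 to 0.47. The SD over genes was 0.73 for the Rab genes and 0.72 for all. As deposited, 24 Rab genes passed the threshold downwards and 0 upwards, or 47.1% and 0%, beside 39.8% and 1.19% of all genes, and the Rab median was -0.99. With equal medians 6 were lower and 1 higher, or 11.3% and 1.89%, beside 16.3% and 4.74% of all genes. With deposited ratios centred on the median gene 4 were lower and 5 higher, or 7.84% and 9.8%, beside 8.22% and 13.9%.

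**Figure D1:**
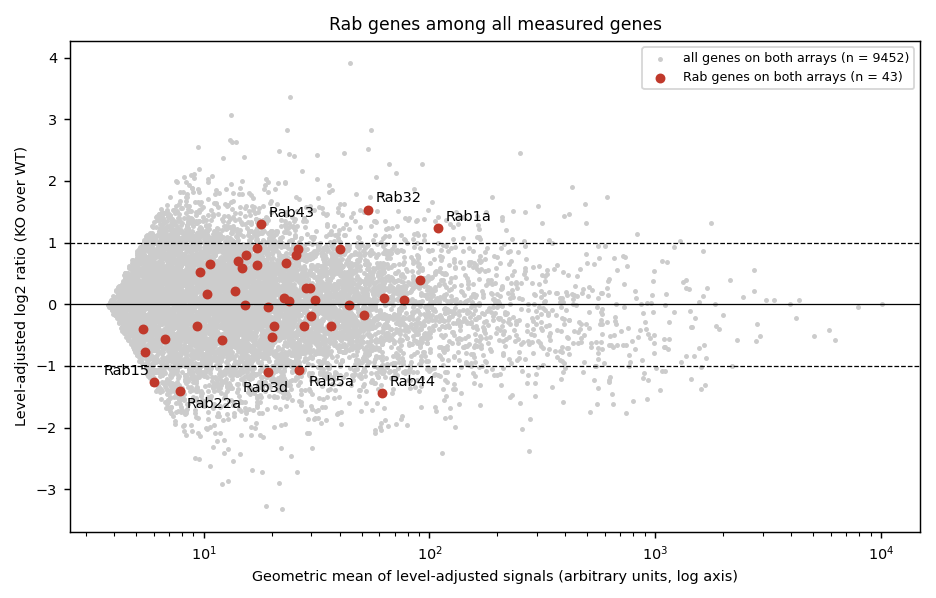
Level-adjusted log2 ratio (KO over wild type, y axis) against the geometric mean of the level-adjusted signals (x axis, arbitrary units, log axis) for 9452 genes measured on both arrays (grey) and the 43 Rab genes among them (red). Dashed lines mark 2-fold; the 5 lower and 3 higher Rab genes are named and lie inside the cloud of all genes. Of the higher ones, Rab43 and Rab1a change sign with the hybridisation controls as reference.

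Upstream sequence was examined for the called members, because c-Maf binds Maf recognition elements, in which the flank TGCTGAC runs into and overlaps an AP-1 core, TGACTCA, or a cyclic AMP response core, TGACGTCA. The E-box CACGTG, which the lysosomal regulator TFEB and its relatives bind, was added. All letters were searched on both strands in the 250 bases before each annotated start, using RefSeq promoter windows of GRCm38.p6. Windows were found for 48 of the 59 Rab genes and for 8 of the 9 called ones, and 4 of these 8 held at least 1 match, beside 9 of the 48 Rab genes (18.8%) and 16.8% of all genes. Rab15 and Rab43 had 4 windows each to search, and nothing is read from 4 of 8. Shown here are the matching windows of those 4 and, for contrast, that of Rab32, which held none. Rab32 had the highest ratio among the Rab genes measured on both arrays. Capitals mark the matches, and each window reads in the direction of the gene. Rab5a lies at chr17:53478984-53479233, plus strand. Rab15 has 4 annotated starts, of which the window with the match lies at chr12:76818375-76818624, minus strand. Rab25 lies at chr3:88548280-88548529, minus strand. Rab43 also has 4 starts, and its window with the match lies at chr6:87809758-87810007, minus strand. Rab32 lies at chr10:10558208-10558457, minus strand.
Rab5a: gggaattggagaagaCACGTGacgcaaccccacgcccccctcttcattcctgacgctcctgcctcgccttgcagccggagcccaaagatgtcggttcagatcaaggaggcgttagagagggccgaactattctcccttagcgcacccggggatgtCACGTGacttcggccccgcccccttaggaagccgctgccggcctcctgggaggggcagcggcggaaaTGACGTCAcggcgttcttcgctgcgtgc
Rab15: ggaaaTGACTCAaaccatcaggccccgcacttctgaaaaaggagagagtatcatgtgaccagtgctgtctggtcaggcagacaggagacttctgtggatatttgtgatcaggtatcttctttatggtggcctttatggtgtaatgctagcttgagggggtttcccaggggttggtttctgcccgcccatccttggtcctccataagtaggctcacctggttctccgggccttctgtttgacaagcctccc
Rab25: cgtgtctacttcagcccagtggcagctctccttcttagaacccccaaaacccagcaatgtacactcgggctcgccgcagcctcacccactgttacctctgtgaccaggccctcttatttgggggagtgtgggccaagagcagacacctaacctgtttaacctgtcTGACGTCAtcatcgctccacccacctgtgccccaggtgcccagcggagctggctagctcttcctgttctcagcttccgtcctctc
Rab43: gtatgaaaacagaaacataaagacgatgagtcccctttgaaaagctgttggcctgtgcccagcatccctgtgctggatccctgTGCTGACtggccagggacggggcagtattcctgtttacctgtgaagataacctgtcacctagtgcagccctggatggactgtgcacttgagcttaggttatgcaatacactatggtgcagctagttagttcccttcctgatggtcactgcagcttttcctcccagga
Rab32: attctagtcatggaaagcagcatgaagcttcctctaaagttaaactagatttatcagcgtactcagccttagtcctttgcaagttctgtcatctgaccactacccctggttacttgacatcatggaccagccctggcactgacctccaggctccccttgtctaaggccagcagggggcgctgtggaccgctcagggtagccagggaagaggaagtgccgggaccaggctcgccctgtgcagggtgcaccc

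In Rab5a, CACGTG stood 235 to 230 and again 95 to 90 bases before the start, and TGACGTCA 28 to 21 bases before it. Rab15 held TGACTCA and Rab25 TGACGTCA, and both are lower members. The higher member Rab43 held the flank TGCTGAC. Over all 27025 genes with a window, TGCTGAC was found in 4.31%, TGACTCA in 5.16%, TGACGTCA in 1.77% and CACGTG in 6.86%. Among the 48 Rab genes the same motifs were in 2.08%, 4.17%, 4.17% and 10.4%, and the 5 genes with CACGTG were Rab5a, Rab20, Rab21, Rab23 and Rab27a. The flank TGCTGAC shares its last letters with the start of either core, but no matches overlapped in the windows shown. A match is a description of these letters and not a binding site.

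By role, each of the 6 groups held at most 2 called genes, too few to read against the 9.05% lower and 8.34% higher among all genes. Among the Rabs of the early endosome, 2 of 9 were lower and 0 higher. Rab5a, which recruits tethers and a lipid kinase to early endosomes and young phagosomes, had a signal of 12.6 on the KO array and 57.4 on the wild-type array. It was 2.10-fold lower (log2 ratio -1.07, and -2.18 as deposited) and was represented by its only probe set. Its relative Rab5c did not share this ratio, with 10.4 on the KO array and 18.03 on the wild-type array, a level-adjusted log2 ratio of 0.22. Rab5b was near or below the floor, with 1.17 on the KO array and 5.53 on the wild-type array. Its ratio is a lower limit, at least 1.16-fold lower, and cannot be set against that of Rab5a.

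Rab22a, which acts in early endosome fusion and recycling, had 3.76 on the KO array and 18.1 on the wild-type array, 2.67-fold lower (-1.42). Its 4 probe sets did not share a direction. One with 4.59 on the KO array and 12.5 on the wild-type array had a level-adjusted log2 ratio of -0.62, and one with 14.3 on the wild-type array was below the floor on the KO array, at least 2.76-fold lower. In contrast, one with 10.6 on the KO array and 5.88 on the wild-type array had a ratio of 1.72. Rab31, the close relative also known as Rab22b, had 15.96 on the KO array and 31.8 on the wild-type array, a ratio of 0.11. Rab21, an endosomal Rab that binds integrin tails, was at -0.35, and its second probe set was above the floor on the wild-type array only, at 14.7. Rab24 was at -0.02, Rab17, an epithelial Rab, was at least 1.89-fold higher, and Rab20, a phagosome Rab, was below the floor on both arrays, with 0.29 on the KO array and 0.332 on the wild-type array.

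The recycling endosome group had 2 lower members of 10, and both were dim on the KO array. Rab15, a Rab of the recycling route best known from neurons, had 3.08 on the KO array and 12.8 on the wild-type array, 2.41-fold lower (-1.27). Its KO signal was below the floor as deposited and just above it after level adjustment, at 3.89 against a floor of 3.75. Rab25, an epithelial relative of Rab11, had 0.469 on the KO array and 11.4 on the wild-type array, at least 2.25-fold lower. Each rests on 1 probe set. The other 8 had level-adjusted ratios from 0.05 to 0.90.

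Rab11a, the general recycling Rab, had 36.4 on the KO array and 43.6 on the wild-type array, with a ratio of 0.90 (-0.26 as deposited). Rab11b had 16.5 on the KO array and 34.5 on the wild-type array, with a ratio of 0.05. Its 2 other probe sets were at -0.72 and -0.16. Rab14, which works between the Golgi and endosomes and on phagosomes, had 68.7 on the KO array and 119 on the wild-type array (0.39). It shows how far probe sets can part: the ratio ran from -1.71 to 0.51 among those measured on both arrays, and a dim one, above the floor on the KO array only, was at least 2.24-fold higher. Rab4b, Rab35, Rab13, Rab10 and Rab4a were at 0.69, 0.64, 0.52, 0.26 and 0.16, while all 5 were below 0 as deposited.

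Of the 9 Rabs of late endosomes, lysosomes and phagosomes, 1 was higher and 0 lower. Rab32, which directs cargo to lysosome-related organelles and to phagosomes, had 60.4 on the KO array and 46.9 on the wild-type array. It was 2.90-fold higher (1.54), the highest ratio among the Rab genes measured on both arrays, and it rests on 1 probe set. Genes above the floor on the KO array only have a lower limit and cannot be ranked against Rab32. Rab38, its closest relative and partner in melanosome traffic, had 11.6 on the KO array and 35.5 on the wild-type array (-0.53), and a second probe set, above the floor on the wild-type array only, was at least 2.65-fold lower. Rab7, the master Rab of late endosomes and lysosomes, had 43.6 on the KO array and 91.4 on the wild-type array, a ratio of 0.10, with 0.76 in its other probe set. Rab9, which returns receptors from late endosomes to the Golgi, was at 0.80, although its deposited ratio was -0.32. Rab12 was at 0.80 in the chosen probe set, while its other one was above the floor only on the wild-type array and gave at least 2.60-fold lower. Rab29, Rab7b and Rab34 were at 0.07, -0.04 and -0.40, and Rab9b was above the floor on the KO array only.

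**Figure D2:**
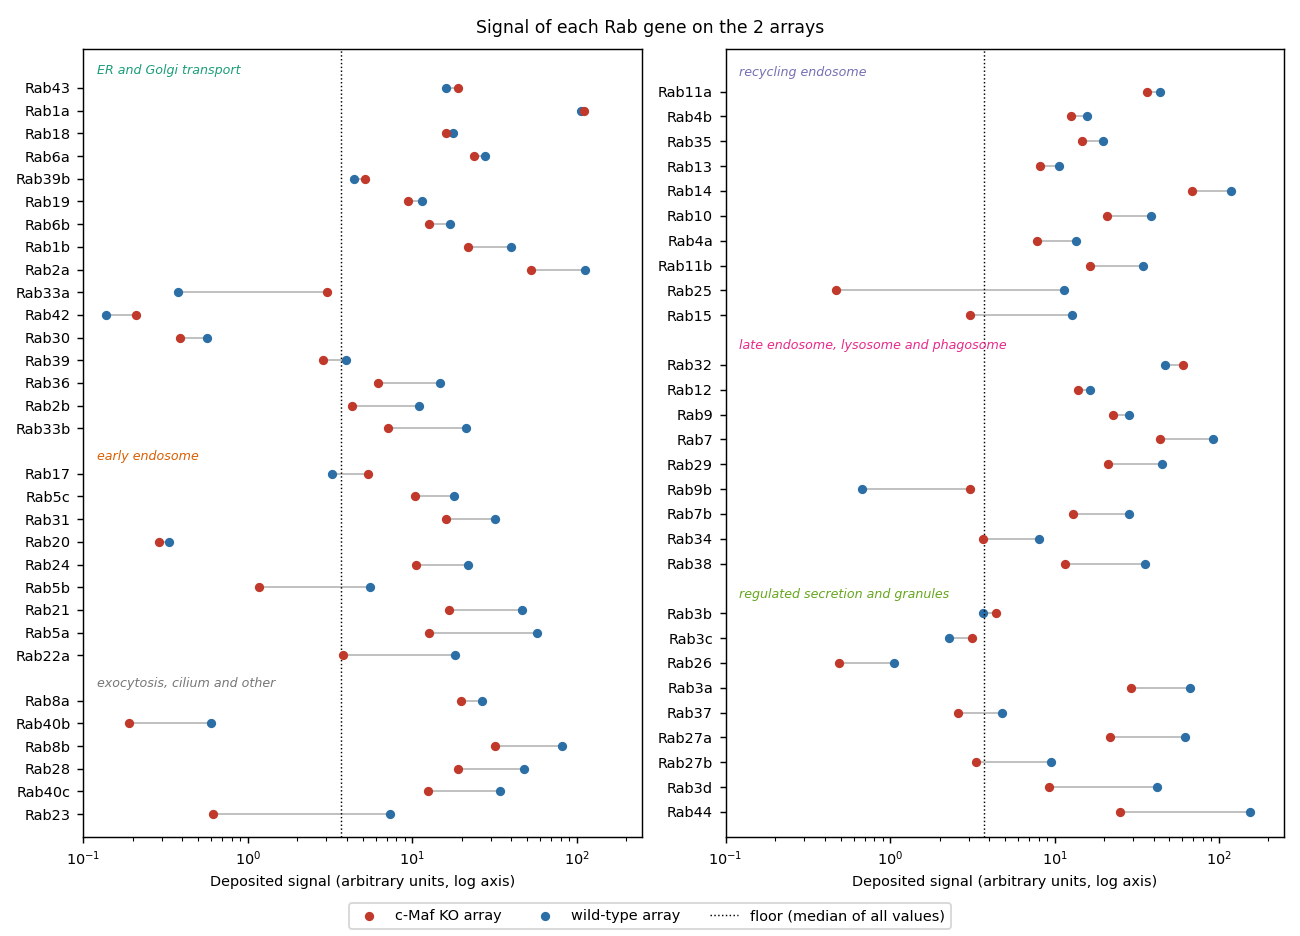
Deposited signal (x axis, arbitrary units, log axis) of the chosen probe set of each of the 59 Rab genes, on the KO array (red) and the wild-type array (blue), by role; the dotted line is the floor on the deposited scale. Most KO points lie left of their wild-type points, while those of Rab32, Rab43 and Rab1a lie to the right, as do those of a few genes near or below the floor.

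The Rabs of regulated secretion had the lowest median of the 6 role groups, -0.77 over the 5 of 9 measured on both arrays, with 2 lower and 0 higher. This median is the value of Rab27b and depends on the probe sets: with the mean over probe sets it was -0.005, and the early endosome group was lowest at -0.37. With probe sets lacking a suffix it was -0.03, and with the second brightest probe set 0.76 over 2 genes, and there too the early endosome group was lowest, at -0.18 and -0.58. Rab44, a large Rab with EF-hand motifs known from mast cell degranulation in mouse, had 25.1 on the KO array and 155 on the wild-type array. It was 2.71-fold lower (-1.44, and -2.62 as deposited), on 1 probe set. This was the lowest ratio among the Rab genes measured on both arrays. Genes above the floor on the wild-type array only, such as Rab25, have a lower limit and cannot be ranked against Rab44. Rab3d, a granule Rab of secretory cells, had 9.32 on the KO array and 41.9 on the wild-type array, 2.14-fold lower (-1.10). Its other 3 probe sets lay on the other side of 0, at 0.53, 0.29 and 0.10, so the call rests on the probe set with the highest mean signal.

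Rab27a, which docks secretory lysosomes and granules, had 21.7 on the KO array and 61.8 on the wild-type array (-0.35). Its second probe set was above the floor on the wild-type array only and another on the KO array only. Rab27b was at -0.77, on 3.32 on the KO array and 9.52 on the wild-type array, and of its dimmer probe sets 1 was above the floor on the KO array only and 1 on the wild-type array only. Rab3a, the synaptic vesicle Rab, was at -0.01. Rab37 was above the floor on the wild-type array only, Rab3b and Rab3c on the KO array only, and Rab26 on neither.

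Markers of granule-bearing cells were present on both arrays. Summed signals are as deposited, a scale on which the median log2 ratio of all genes was -0.93. The sum of 10 granulocyte markers was 8651 on the KO array and 15011 on the wild-type array. Most of it came from S100a8 and S100a9, at level-adjusted ratios of 0 and 0.07. Of the 10, 2 were lower, Mpo and Camp, at -1.19 and -1.62, and 0 were higher. Counts of markers here stand beside 9.05% lower and 8.34% higher among all genes. The median of the granulocyte list was -0.30 (-1.35 as deposited). The summed signal of 9 mast cell and basophil markers was 81.8 on the KO array and 299 on the wild-type array. The largest part on each array came from Hdc, with 35.7 on the KO array and 190 on the wild-type array (-1.23). Gata2 was at -0.84. Ms4a2 and Tpsb2 were above the floor on the wild-type array only, and Mcpt4 and Fcer1a were below it on both. In contrast Cpa3, Cma1 and Mcpt8 were at 0.46, 0.58 and 0.85, and the list median was 0.46 over the 5 markers measured on both arrays (-0.34 as deposited). Fewer cells of a type and less RNA per cell cannot be told apart in such bulk samples, and the part of these cells in the secretory Rab values was not tested. Of 14 macrophage markers, 1 was lower and 5 higher, with a median of 0.60 (-0.50 as deposited). Their summed signal was 522 on the KO array and 968 on the wild-type array. Adgre1, the gene of F4/80, had 48.1 on the KO array and 71.4 on the wild-type array, Itgam, the gene of Mac-1, was close to the floor with 3.94 on the KO array and 5.76 on the wild-type array, and Cd163 was below it on both.

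The Rabs of ER and Golgi transport had the highest median of the 6 groups, 0.59 over 11 of 16 genes measured on both arrays (-0.44 as deposited). In this group 2 were higher and 0 lower. Its median was highest in 11 of 12 settings, but most of these keep the chosen probe sets and change scaling or floor. They therefore say little about the order of the groups. With the second brightest probe set, which replaces every chosen one, its median was -0.05 over 6 genes, at rank 2 from the lowest. Rab1a, which carries cargo from the endoplasmic reticulum to the Golgi, had 111 on the KO array and 107 on the wild-type array. Its level-adjusted log2 ratio was 1.24, a 2.36-fold difference, against 0.06 as deposited, and it turned to -0.19 with the hybridisation controls as reference. Another probe set was at 0.51, and a dim one was above the floor on the KO array only. Rab43, a Golgi Rab, had 18.95 on the KO array and 16.1 on the wild-type array, with a ratio of 1.29, a 2.45-fold difference, that was 0.24 as deposited and -0.005 with the hybridisation controls; a second probe set was at -0.23.

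Rab18 and Rab6a, of the same group, lay just short of 2-fold on the level-adjusted scale while they were slightly dimmer on the KO array as deposited. Rab18, of lipid droplets and the endoplasmic reticulum, was at 0.92 and -0.14 as deposited, and another of its probe sets was above the floor on the KO array only, at least 4.14-fold higher. Rab6a, of Golgi retrograde transport, was at 0.89 and -0.22, and 1 of its 2 other probe sets was at -0.19. Rab19 and Rab6b were at 0.66 and 0.59, Rab1b at 0.27 and Rab2a at 0.07. Below 0 were Rab33b, which links the Golgi to autophagy (-0.59), Rab2b (-0.56) and Rab36 (-0.35). Rab39b was at least 1.81-fold higher, Rab33a was above the floor on the KO array only, and Rab30, Rab39 and Rab42 were above it on neither.

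The summed signal of 11 erythroid markers was 5579 on the KO array and 8730 on the wild-type array, most of it from Hbb-y, with 4650 on the KO array and 7061 on the wild-type array. Of the 11, 2 were higher and 0 lower, with a level-adjusted median of 0.26 (-0.75 as deposited) and Hba-a1 below the floor on both. Hepatoblast markers stood high on the KO array, with 9 of 11 at least 2-fold higher and 0 lower. This and the erythroid count stand beside 8.34% higher and 9.05% lower among all genes. The hepatoblast median level-adjusted log2 ratio was 1.90 (0.78 as deposited), with a summed signal of 588 on the KO array and 369 on the wild-type array. Fgb was below the floor on both. The part of these cells in the values of Rab1a, Rab43 and Rab32 was not tested. Of the remaining 6 Rabs, of exocytosis, the cilium and other routes, 0 were lower or higher. Rab8a was at 0.66, Rab8b at -0.17, Rab28 at -0.19, Rab40c at -0.36 and Rab23 at a bound of at least 1.51-fold lower, and Rab40b was below the floor on both arrays.

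**Figure D3:**
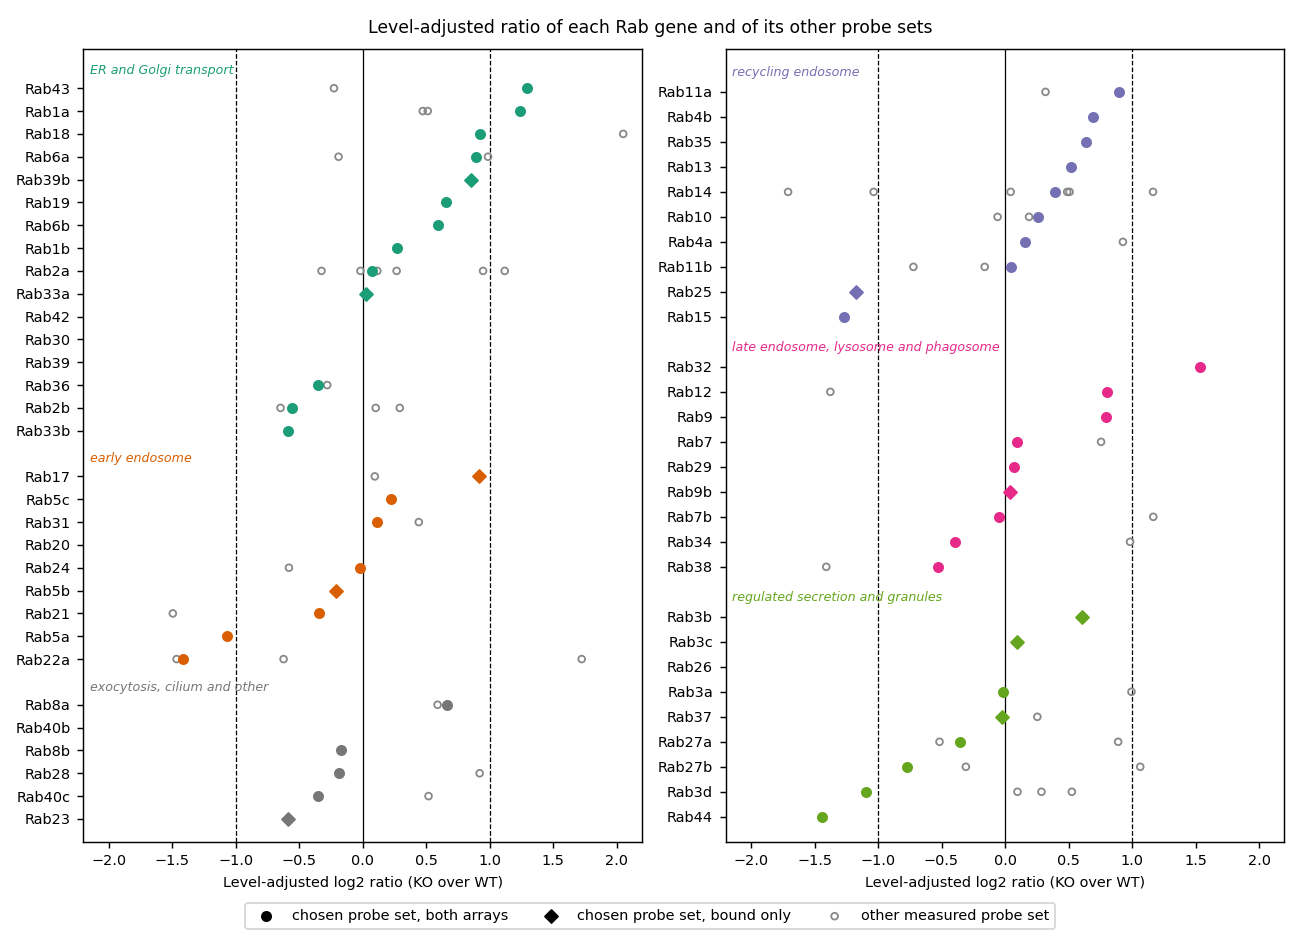
Level-adjusted log2 ratio (KO over wild type, x axis) of each Rab gene by role, for the chosen probe set (filled; circles for both arrays, diamonds for a bound) and for its other probe sets above the floor on at least 1 array (open); genes with no filled point were below the floor on both arrays. Open points of Rab14, Rab22a and Rab3d lie on both sides of 0 or opposite to the filled one, and the ratios of Rab1a and Rab43 turn sign with the hybridisation controls as reference.

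Agreement between probe sets could be examined for 30 Rab genes with more than 1 probe set above the floor on at least 1 array. In 12 of these all such probe sets lay on the same side of 0 and in 18 they did not. Among the 9 called genes, Rab44, Rab5a, Rab15, Rab25 and Rab32 had no other probe set to compare. Rab1a had both others on its own side, whereas Rab22a, Rab3d and Rab43 each had at least 1 on the other side. The spread between bright probe sets of the same Rab gene was 0.71 log2 units (pooled SD over 23 probe sets of 8 genes). This was close to the 0.69 over the bright probe sets of all genes.

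Related Rab genes were set side by side in 12 pairs in which both were measured on both arrays. In 4 pairs the ratios lay further apart than 0.98 log2 units, the spread (SD) of a difference between 2 bright probe sets. Some pairs would pass an SD from the spread of probe sets alone, so passing it does not set a pair apart. Rab32 and Rab38 were 2.06 apart, Rab22a and Rab31 1.52, Rab5a and Rab5c 1.29, and Rab3a and Rab3d 1.09. The last distance rests on a Rab3d probe set whose other 3 lay on the other side of 0. The other probe set of Rab3a was at 0.996. Rab1a and Rab1b were 0.97 apart, Rab11a and Rab11b 0.85, and Rab8a and Rab8b 0.83. Rab7 and Rab7b were closest in their chosen probe sets, 0.14 apart. The other probe set of Rab7 was at 0.76, and another of Rab7b was above the floor on the KO array only, at least 2.25-fold higher. The pairs were formed with the values known, and no test of these differences was possible.

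**Figure D4:**
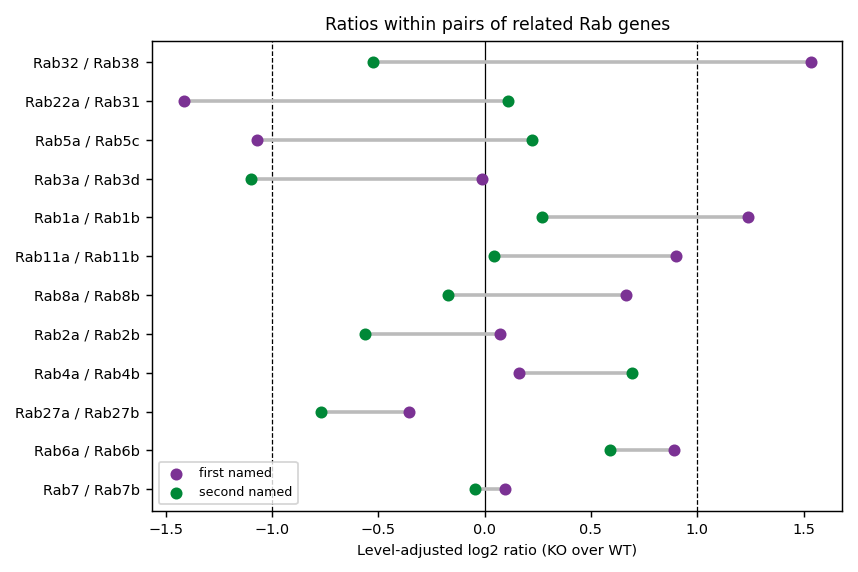
Level-adjusted log2 ratio (KO over wild type, x axis) within 12 pairs of related Rab genes, ordered by the distance between them; purple is the gene named first and green the one named second. Rab32 and Rab38 lie furthest apart, at 1.54 and -0.53, and Rab7 and Rab7b nearest; Rab1a turns sign with the hybridisation controls as reference.

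The genes that load, recycle and read Rabs were counted in 6 lists. Of 149 such genes, 115 were measured on both arrays. Among the 115, 14 were lower and 8 higher, or 12.2% and 6.96%, beside 8.57% and 7.62% of all genes, and their median level-adjusted log2 ratio was -0.01 (-1.09 as deposited). With bounds, 23 of 141 were lower and 10 higher, or 16.3% and 7.09%, beside 9.05% and 8.34% of 13290 genes; the 23 include genes that passed the floor through the wild-type array alone and so could not be higher. In the counts by list that follow, bounds are included and the count among genes measured on both arrays stands beside them, to be read against 8.57% lower and 7.62% higher among all such genes.

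For prenylation and recycling, 1 of 11 genes was lower, and 0 of the 8 measured on both arrays. Rabggta, the alpha subunit of the enzyme that adds the lipid anchor to Rabs, had 2.38 on the KO array and 17.5 on the wild-type array, at least 3.30-fold lower. Chm, the escort protein that presents Rabs to this enzyme, was at 0.10, and Gdi2, a dissociation inhibitor, had 1129 on the KO array and 1933 on the wild-type array (-0.22). Rabac1, a prenylated Rab acceptor, was at 0.61 and Yipf4, a Golgi membrane protein of the Yip family, at -0.31.

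Of 38 exchange factor genes, 8 were lower and 2 higher, and of the 30 measured on both arrays 5 were lower and 2 higher. Gapvd1, a Rab5 exchange factor, had 47.8 on the KO array and 237 on the wild-type array (-1.13). Madd, the exchange factor of Rab3 and Rab27, had 8.91 on the KO array and 38.2 on the wild-type array (-1.03). Dennd1a and Dennd1c, which act on Rab35, were above the floor on the wild-type array only, at least 5.04-fold and 5.93-fold lower; they were picked after their values were seen. Of the TRAPP complexes, which activate Rab1, Trappc2 was at -1.15 and Trappc3 at 1.03 (-0.06 as deposited). Mon1b, of the Rab7 exchange factor, was above the floor on the KO array only.

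Of 33 GTPase-activating protein genes, 2 were lower and 3 higher, and of the 23 measured on both arrays 1 was lower and 2 higher. Tbc1d10b, which acts on Rab27 and Rab35, had 28.6 on the KO array and 169 on the wild-type array, a ratio of -1.38. Rabgap1 had 20.8 on the KO array and 20.1 on the wild-type array, a ratio of 1.14 (0.05 as deposited). Tbc1d2b was at -0.66, and Tbc1d10a, a relative of Tbc1d10b, at 0.51.

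Effectors of endosomal Rabs had 7 of 23 lower and 1 higher, and 4 of the 19 measured on both arrays lower and 1 higher. Rab11fip3, Rab11fip4 and Vps45 were counted as lower by a bound, above the floor on the wild-type array only. Ankfy1, a Rab5 effector of macropinocytosis, had 24.8 on the KO array and 135 on the wild-type array (-1.28). Tgfbrap1, a subunit of the CORVET tether that works with Rab5, had 10.02 on the KO array and 48.6 on the wild-type array (-1.19), and Vps8, its partner in that tether, picked after its value was seen, was at -1.32. Eea1, the long tether of early endosomes, was at 0.03. Rabep2, a relative of the Rab5 effector rabaptin, was at 0.59 and Acap2, which binds Rab35, at 0.37.

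Effectors of the late endosome and lysosome had 2 of 22 lower and 3 higher, and 1 of the 21 measured on both arrays lower and 3 higher. Vps11, a core subunit that CORVET shares with the Rab7 tether HOPS, had 4.59 on the KO array and 23.3 on the wild-type array (-1.44). The other subunits of these tethers in the list did not share one ratio: Vps18 was above the floor on the wild-type array only (at least 2.57-fold lower), while Vps16 was at 0.21, Vps33a at -0.05, Vps39 at -0.06 and Vps41 at -0.01. The higher genes were Rilpl1, Fyco1 and Wdr91, at 1.15, 1.26 and 1.11; these and the other tether subunits were picked after their values were seen. Plekhm1, an adaptor between Rab7 and HOPS, was at -0.73, Osbpl1a, a cholesterol-sensing partner of Rab7, at -0.51, and Plin3, a lipid droplet protein also described with Rab9, at 0.75, while Rilp, which couples Rab7 to dynein, was at 0.64 with 5.91 on the KO array and 6.51 on the wild-type array. Effectors of the secretory route and Golgi had 3 of 22 lower and 1 higher, and 3 of the 14 measured on both arrays lower and 0 higher. Uso1, the Rab1 tether p115, had 9.91 on the KO array and 49.7 on the wild-type array (-1.24). Golgb1, the Golgi tether giantin, was at -1.07 and Mical1 at -1.10, while Exoc2 of the exocyst was at 0.80, though at -0.18 as deposited.

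**Figure D5:**
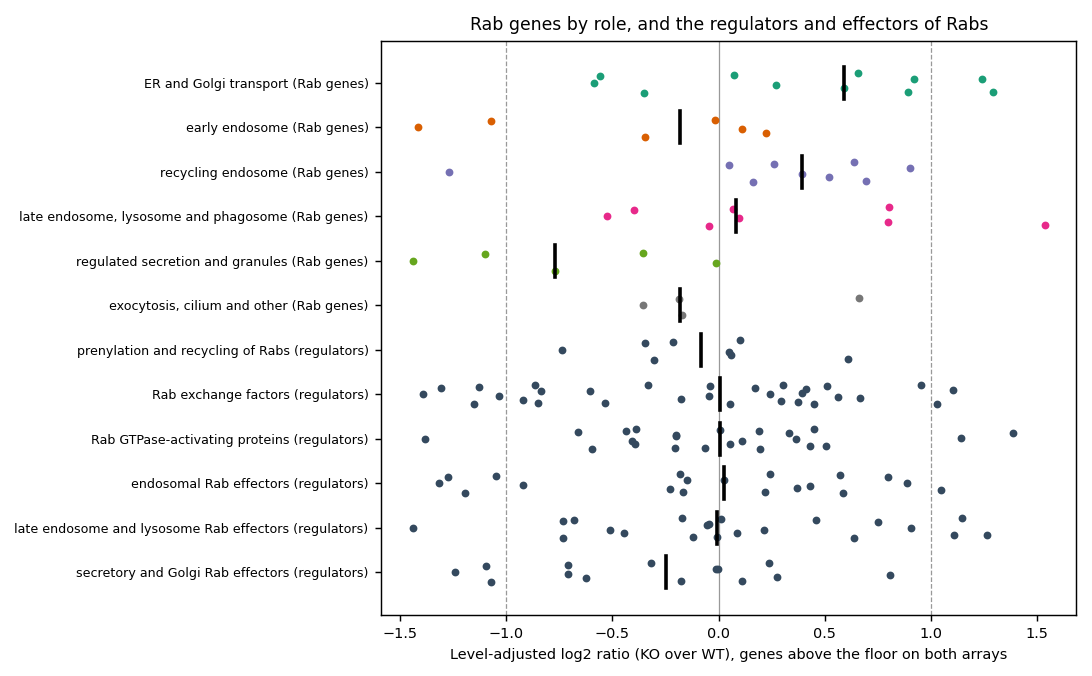
Level-adjusted log2 ratio (KO over wild type, x axis) of genes measured on both arrays, for the 6 role groups of Rab genes (coloured) and the 6 lists of Rab regulators and effectors (dark); the vertical bars are medians. The medians of the Rab groups run from -0.77 for regulated secretion to 0.59 for ER and Golgi transport, the second being -0.44 as deposited and the first -0.005 with the mean over probe sets, and the list medians lie between -0.25 and 0.03.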

How the data were processed

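Total RNA of sorted cells was biotin-labelled and hybridised to Affymetrix GeneChip arrays, per the labels' protocols. The table deposited by the authors holds 1 linear intensity per array for each of 45101 probe sets. The sources used here give neither the summarisation nor the scaling of the authors; GeneSpring is named for their own search, per the labels. No detection calls or scanner files were used here, and the number of arrays limits the precision. Of 34945 probe sets with 1 symbol in the platform annotation, 34741 were updated by Entrez identifier to the GRCm38.p6 gene table.

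Quantile normalization was done on log2 intensities over all probe sets (numpy 2.4.6, pandas 2.3.3), with a floor at the 50th percentile (3.75, or 3.70 as deposited). The code was also run on simulated arrays with a uniform difference in level, little noise and known changes in bright probe sets. That run does not show how well the normalization suits the real arrays, which differed in other ways. The sequences are RefSeq's. Named members are every called Rab gene and 13 well-known ones; of each regulator list, up to 4 genes with the largest absolute ratio among those measured on both, with the brighter signal reaching 4 times the floor, plus fixed names, not all of which are reported here. The members, role groups and lists were chosen with earlier results of these data known. Alternatives covered scaling, floor, probe set and fold threshold.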

Additional observations from a re-analysis of the deposited data

How the results depend on the processing

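No paired analysis was possible because each genotype has 1 array. Beside the 6 lower and 3 higher Rab genes and their median of 0.07, values as deposited gave 24, 0 and -0.99, and hybridisation controls as reference, chosen after seeing the data, gave 31, 0 and -1.12. Higher genes numbered 1 with equal medians, 5 with centred ratios, 7 with the floor at the 25th percentile, 5 with probe sets lacking a suffix and 16 at 1.5-fold; lower genes numbered 3 with the floor as a pseudocount, 3 with the second brightest probe set and 3 among genes whose brighter signal reached 4 times the floor, also chosen after seeing the data. At 3-fold both counts were 0. The share of all genes moved with these settings: higher were 13% of Rab genes and 17.7% of all genes with the floor at the 25th percentile, 10.2% and 8.64% with probe sets lacking a suffix, and 30.2% and 21.2% at 1.5-fold; lower were 5.66% and 8.19% with the pseudocount, 10% and 8.75% with the second brightest probe set and 9.38% and 12% at 4 times the floor. Rab3d turned to 0.29 with probe sets lacking a suffix and to 0.53 with the second brightest, where Rab43 turned to -0.23; with hybridisation controls Rab1a was at -0.19 and Rab43 at -0.0048. The counts at other thresholds follow from the threshold. Those on the deposited and control scales include the difference in level between the arrays. With hybridisation controls 60.8% of Rab genes and 49.5% of all genes were lower. What lay behind the difference in level, and behind the other changes, was not tested. Rab44 remained at least 2-fold lower in all 9 alternatives that gave it a value (-2.86 to -1.35), Rab5a in 8 of 9, Rab32 at least 2-fold higher in 7 of 9 (0.12 to 1.54), Rab22a lower in 7 of 10 and Rab25 in 7 of 9; Rab15 kept its call in 5 of 8, Rab3d in 6 of 10, Rab43 in 5 of 10 and Rab1a in 4 of 10. Rab44, Rab5a, Rab32, Rab25 and Rab15 have 1 probe set, so alternatives of the probe set could not change their values. Their counts are therefore not comparable with those of Rab22a, Rab3d, Rab43 and Rab1a, which have several. Of 487 values of single Rab genes under alternatives, 362 moved by less than 0.69, the spread between bright probe sets. A further 120 moved by more, and 5 called ones changed sign. The 362 include values that an alternative could not move. A signal close to the floor limits the dim members most.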
